A study of Homo sapiens with 6 samples.

Results

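Domains called for lamin B1 and LC3 coincided over 270 uninterrupted stretches of at least 1 Mb in the human lung fibroblast line IMR90. Chromatin immunoprecipitation with sequencing (ChIP-seq) was performed on untreated cells grown at 3% oxygen, in 3 groups of 2 replicates: an antibody against lamin B1, an antibody against LC3, and input chromatin. Each precipitated sample has 1 list of broad domains, 4 in all; input was not analysed here. A stretch was kept where every base lay in all 4 lists and the run was at least 1000000 bases long. Of 470 contiguous runs in all 4 lists, 270 (57.4%) met that minimum, and they held 910 of 1040 Mb (87.5%). The lists give positions in GRCh37/hg19 alone, with no score or read count, so the depth behind a domain is unknown. Nothing in the labels tells separate cultures from repeat preparations, and spread between replicates may be technical.

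Lamin B1 is a filament protein of the nuclear lamina, the meshwork beneath the inner nuclear membrane. The chromatin that touches it forms lamina-associated domains, which are long, mostly gene-poor, late replicating and rich in repressive histone marks. LC3 is a ubiquitin-like protein that is joined to lipid on autophagosome membranes and there recruits cargo for degradation. A pool of LC3 is also found in the nucleus. The study that deposited these lists is titled for the breakdown of the nuclear lamina by autophagy, and the comparison asks where on the genome both proteins are found together.

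The long stretches were chosen from the lists themselves, so their presence in all 4 is a definition and carries no test. They took up similar parts of each list: 65.0% of the 1400 Mb in lamin B1 replicate 1, 65.7% of 1384 Mb in lamin B1 replicate 2, 64.9% of 1403 Mb in LC3 replicate 1 and 61.3% of 1484 Mb in LC3 replicate 2. The stretches are the same bases in every list, so these shares only restate the sizes of the lists. The share was therefore lowest in LC3 replicate 2, which is the list with the most covered DNA. Of 329 lamin B1 runs of at least 1 Mb that were common to both lamin B1 lists, 262 (79.6%) held a long shared stretch, and 67 did not. The median run was 2.61 Mb among those that held one and 1.37 Mb among the others. Of 275 such LC3 runs, 222 (80.7%) held a long shared stretch, with medians of 2.81 Mb and 1.71 Mb. A run must itself exceed the minimum by some margin to hold a stretch after 2 further lists are intersected, so these length differences follow in part from the definition.

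Stretch length was strongly skewed. The median was 2.12 Mb, the interquartile range 1.57 to 3.94 Mb and the mean 3.37 Mb. There were 120 stretches from 1 to 2 Mb, 105 from 2 to 5 Mb, 33 from 5 to 10 Mb and 12 of 10 Mb or more. The 120 shortest made up 44.4% of the number and 19.5% of the length, whereas the 12 longest made up 4.44% of the number and 19.5% of the length. The 54 longest stretches held at least 50% of the total. Around the minimum, the shortest members measured 1.013 Mb (chr14:62322001-63335000), 1.018 Mb (chr10:119406001-120424000) and 1.026 Mb (chr1:193311001-194337000). The longest runs left out measured 0.995 Mb (chr6:160325001-161320000), 0.983 Mb (chr7:131405001-132388000) and 0.978 Mb (chr10:121947001-122925000). No gap in length separated members from non-members.

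**Figure D1:**
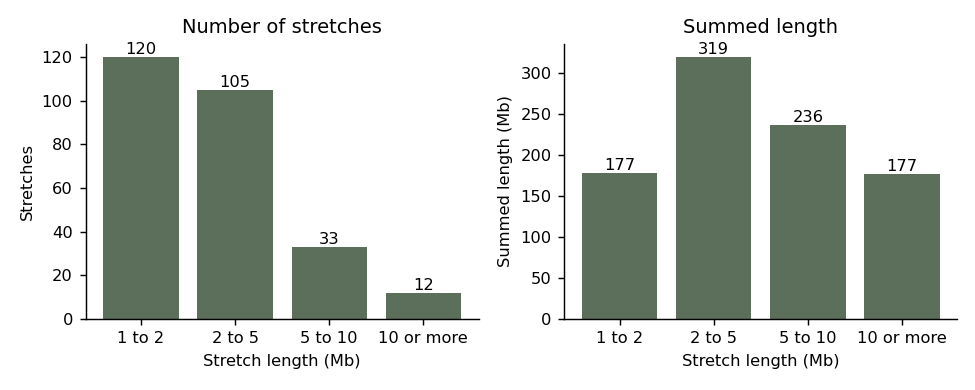
Number of long shared stretches (left) and their summed length in Mb (right) by class of stretch length in Mb; each bar is one class over all 23 chromosomes. The class of 10 Mb or more holds 12 stretches, and its 177 Mb equals, after rounding, that of the 120 stretches from 1 to 2 Mb.

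The 10 longest stretches summed to 157 Mb (17.2% of the total) and differed in how closely the 4 domain calls matched. The clearest match was at chr3:73320001-90220000 (16.9 Mb). There the lamin B1 domains measured 16.93 and 16.95 Mb and the LC3 domains 16.90 and 16.92 Mb, and all 4 lists ended within 48 kb of the shared edges. At chr4:9860001-24332000 (14.5 Mb), the lamin B1 domains measured 14.63 and 14.58 Mb and the LC3 domains 14.58 and 14.61 Mb. These 2 stretches were close to complete domains in every list, and neither antibody ran far beyond the other.

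At chr7:108204001-127074000 (18.9 Mb), the lamin B1 domains measured 19.31 and 18.89 Mb and the LC3 domains 20.03 and 19.99 Mb. At chr11:18852001-31364000 (12.5 Mb), the lamin B1 domains measured 12.51 and 12.53 Mb and the LC3 domains 13.50 and 13.38 Mb. At chr2:137268001-148485000 (11.2 Mb), the lamin B1 domains measured 11.75 and 11.74 Mb and the LC3 domains 11.67 and 12.25 Mb. In each of these 3 the stretch filled more than 90% of all 4 domains, and the furthest that any list ran past a shared edge was 1.029 Mb.

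Elsewhere the LC3 domain ran on well past the lamin B1 domain that held the same stretch. The longest stretch, at chr13:53493001-73248000 (19.8 Mb), nearly equalled its lamin B1 domains of 19.90 and 19.86 Mb, while the LC3 domains measured 27.2 and 33.2 Mb. At chr5:98424001-118173000 (19.7 Mb), the lamin B1 domains measured 19.8 and 23.6 Mb and the LC3 domains 34.10 and 34.08 Mb. At chr6:114432001-127527000 (13.1 Mb), the lamin B1 domains measured 13.2 and 13.1 Mb and the LC3 domains 19.9 and 22.2 Mb. In these 3 stretches both LC3 domains were longer than both lamin B1 domains, and the excess lay on the right side on chromosome 13 and on both sides on chromosome 5. Part of that excess overlapped further lamin B1 domains. On chromosome 13 these were chr13:77976001-86760000 in replicate 1 and chr13:77976001-86728000 in replicate 2. On chromosome 5, lamin B1 replicate 1 had another domain at chr5:118809001-122004000.

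The widest contrast was at chr4:90080001-108728000 (18.6 Mb), where the lamin B1 domains measured 18.8 and 18.6 Mb and the LC3 domains 38.5 and 61.0 Mb. That LC3 replicate 2 domain spanned chr4:90054001-151011000 and held 10 long shared stretches, the most of any domain in the 4 lists. The 10 stretches filled 67.7% of it, and the second longest of them was chr4:130020001-138021000 (8.00 Mb). Over the same 61.0 Mb, LC3 replicate 1 placed 3 domains covering 95.6%, while lamin B1 placed 11 domains covering 68.9% in replicate 1 and 10 domains covering 76.6% in replicate 2. The region was therefore nearly continuous in both LC3 lists and a chain of separate domains in both lamin B1 lists.

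The stretch at chr20:6126001-17452000 (11.3 Mb) was bounded on its right by a single list. Lamin B1 replicate 1 and both LC3 replicates had domains of 18.9, 19.0 and 19.0 Mb there, and lamin B1 replicate 2 had one of 11.3 Mb. Among the 10 longest, the stretch filled at least 90% of the lamin B1 domain in 9 of 10 cases in each replicate, and of the LC3 domain in 5 of 10 cases in each replicate.

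**Figure D2:**
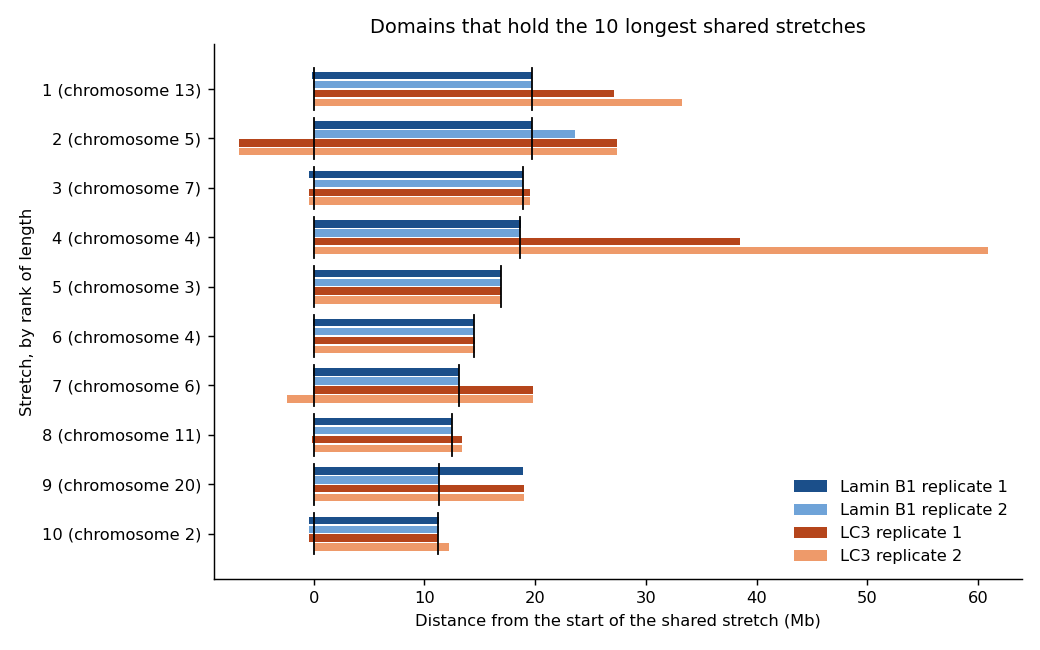
Domains of the 4 lists (coloured bars) that hold each of the 10 longest shared stretches, ranked from longest at the top; the horizontal axis is distance in Mb from the start of the shared stretch, and the 2 black lines mark its start and end. The bars end together at rank 5 on chromosome 3 (16.9 Mb), while the LC3 bars run on to 38.5 and 61.0 Mb at rank 4 on chromosome 4.

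Landmark genes can be given for these 10 stretches only as background, because no hg19 annotation was used and no gene was placed by computation. Well-known genes of those chromosome segments include PCDH17 and PCDH9 (protocadherins, cell adhesion) on chromosome 13, EFNA5 (an ephrin ligand) and KCNN2 (a potassium channel) on chromosome 5, and FOXP2 (a forkhead transcription factor) and KCND2 (a potassium channel) on chromosome 7. UNC5C (a netrin receptor) belongs to the longer segment of chromosome 4, and SLIT2 (an axon guidance ligand) and KCNIP4 (a channel-binding protein) to the shorter one. ROBO1 and ROBO2, receptors for SLIT ligands, belong to the segment of chromosome 3. LRP1B (a receptor of the LDL receptor family) and ZEB2 (a zinc finger transcription factor) belong to that of chromosome 2. GJA1 (a gap junction protein) belongs to that of chromosome 6, NELL1 (a secreted protein) to that of chromosome 11, and JAG1 (a Notch ligand) to that of chromosome 20. These names were chosen from general knowledge and are not a sample of the genes in the stretches. In the gene order of RefSeq (GRCh38.p14, used for order only), genes were counted by their listed start position without regard to strand. By that count no protein-coding gene starts between ROBO2 and ROBO1, 5 start between PCDH17 and PCDH9, and 3 between LRP1B and ZEB2. There are 14 between FOXP2 and KCND2 and 19 between EFNA5 and KCNN2. The other pairs counted were SLIT2 and KCNIP4 (1), NELL1 and LUZP2 (6), GJA1 and NKAIN2 (7), and JAG1 and MACROD2 (7). No count over the genome was set beside these, so they do not measure gene density.

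Long shared stretches were found on 21 of 23 chromosomes. Chromosome 4 carried the greatest length, 25 stretches over 101 Mb, or 53.8% of its span, which here means the distance between its outermost domain ends in the 4 lists. Chromosome 2 carried 26 stretches over 100.2 Mb (41.4%), and chromosome 3 carried 25 over 93.3 Mb (48.2%). Chromosomes 19 and 22 carried 0 stretches, and chromosome 21 carried 1, chr21:15576001-18390000 (2.81 Mb). Chromosome 17 followed with 2 stretches over 3.36 Mb and chromosome 16 with 3 over 5.46 Mb. By share of span, chromosomes 13 (46.1%) and 18 (42.1%) came after chromosomes 4 and 3, although each is far shorter than chromosome 1, where 25 stretches made up 26.0%.

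Chromosomes also differed in how their stretches were built. Chromosome 8 had the highest median length, 4.90 Mb over 10 stretches, and chromosome 10 the lowest among chromosomes with at least 10, 1.60 Mb over 15 stretches. Chromosome 13 placed 43.8 Mb in 9 stretches, and its longest member was 19.8 Mb. Chromosome 1 placed 64.1 Mb in 25 stretches, and its longest, chr1:71007001-77589000, was 6.58 Mb. Outside the 10 longest, the longest of other chromosomes were at chr14:78550001-88835000 (10.3 Mb), chr18:61545001-71800000 (10.3 Mb) and chr9:22236001-31930000 (9.69 Mb). Those at chr8:107925001-117015000 (9.09 Mb), chr10:53787001-61371000 (7.58 Mb) and chr12:81576001-88332000 (6.76 Mb) came next. On chromosome 15 the longest was 3.76 Mb (chr15:94770001-98526000), on chromosome 16 it was 2.22 Mb (chr16:50512001-52728000) and on chromosome 17 it was 1.89 Mb (chr17:31341001-33232000).

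On the X chromosome the result rested on 1 LC3 list. X carried 13 long stretches over 21.8 Mb, and its longest, chrX:37170001-39504000, was 2.33 Mb. These made up 27.8% of the X-linked bases that were in both lamin B1 lists, against 72.4% of such bases on the autosomes as one. Chromosome 21 (21.9%) and chromosomes 19 and 22 (0%) were below X on this measure, and chromosome 16 was at 29.8%. Of the bases in both LC3 lists, the long stretches held 74.9% on X and 69.0% on the autosomes. The lists covered 85.9 and 91.5 Mb of X for lamin B1, and 31.7 and 66.6 Mb for LC3. Without LC3 replicate 1, X carried 21 long stretches over 52.3 Mb, and the longest was then chrX:80766001-87513000 (6.75 Mb), where LC3 replicate 1 covered 0% of the bases. With lamin B1 replicate 1, lamin B1 replicate 2 or LC3 replicate 2 left out, X carried 21.8, 23.6 and 22.5 Mb.

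**Figure D3:**
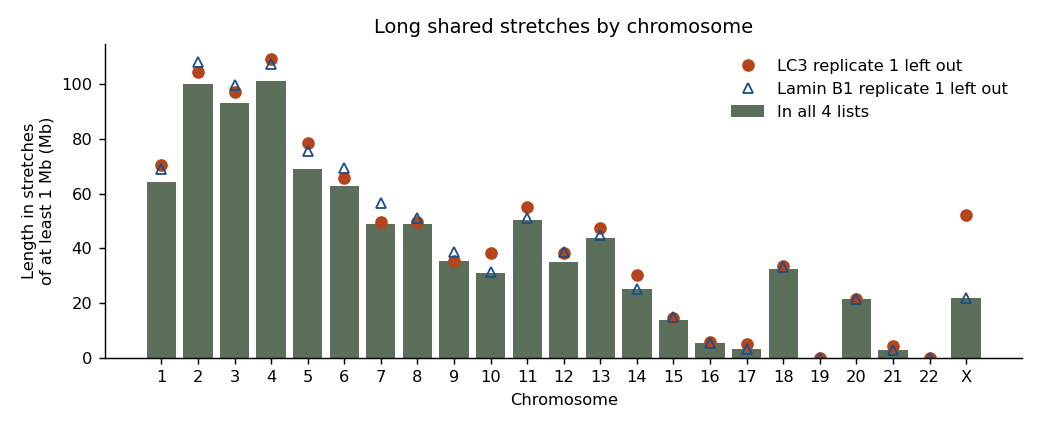
Length in Mb held by long shared stretches on each chromosome: bars require all 4 lists, circles leave out LC3 replicate 1 and open triangles leave out lamin B1 replicate 1. The bar is highest on chromosome 4 (101 Mb) and 0 on chromosomes 19 and 22, and on X the circle lies at 52.3 Mb above a bar of 21.8 Mb.

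Long shared stretches covered less of the DNA near the outer ends of the chromosome spans than elsewhere. They took up 14.9% of the DNA within 5 Mb of either end of a span and 33.6% of the rest. By number, 19 of 270 (7.04%) lay within 5 Mb of an end, against 8.72% of all shared runs, and these end windows made up 8.10% of the spans. The median distance was 34.4 Mb. Of the 45 stretches of at least 5 Mb, 2 lay within that distance, and of the 12 of at least 10 Mb, 0 did. The members nearest an end were at chr11:130416001-134944000 and at chr3:84001-3975000, which came within 0.0020 and 0.024 Mb of it. Spans end where the outermost domain ends, so these distances are not distances to telomeres.

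Each long stretch lay in a single domain of each list, and at the median the stretches filled more of their lamin B1 domain than of their LC3 domain. The median share of the domain that the stretch filled was 96.6% and 95.5% in the lamin B1 replicates and 77.9% and 69.5% in the LC3 replicates. Both lamin B1 medians lay above both LC3 medians. Stretch by stretch, both lamin B1 shares exceeded both LC3 shares in 149 cases, both LC3 shares exceeded both lamin B1 shares in 45, and the order was mixed in 76. This count was not made over all shared runs, so it cannot be called a trait of the long ones. Stretches that lie in the same LC3 domain were counted separately. With 2 lists against 2, no two-sided exact permutation test can give a p below 0.333, and none was applied because the same lists chose the stretches. At least 90% of the domain was filled by 165 (61.1%) and 159 stretches (58.9%) in the lamin B1 lists and by 107 (39.6%) and 94 (34.8%) in the LC3 lists. Over all 470 shared runs, short ones included, the corresponding shares were 55.1%, 59.8%, 32.3% and 33.2%. The shares of the long stretches were near that background, and the order of the antibodies was the same.

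**Figure D4:**
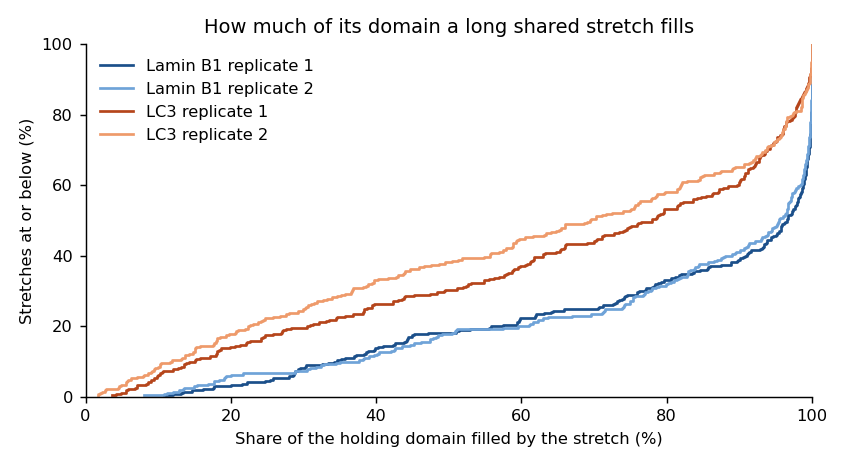
Cumulative percent of the 270 long shared stretches (vertical) against the percent of the holding domain that the stretch fills (horizontal), one line per list. The 2 LC3 lines lie above the lamin B1 lines over most of the range, which places their medians at 77.9% and 69.5% against 96.6% and 95.5%.

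The holding domains measured 3.20 and 3.05 Mb at the median in the lamin B1 lists and 4.18 and 4.63 Mb in the LC3 lists, counted once per stretch. The 270 stretches fell into 249 different domains in each lamin B1 list, and into 219 and 208 domains in the LC3 lists. A stretch was the only shared run in its domain in 217 (80.4%) and 221 cases (81.9%) for lamin B1, and in 162 and 150 cases (55.6% in replicate 2) for LC3. Over all shared runs the shares were 83.8%, 86%, 63.4% and 60.9%. In all 4 lists at once this held for 125 stretches (46.3%), against 52.1% of all 470 shared runs. In lamin B1 replicate 1, 2 domains shared the maximum of 3 long stretches, and the longer of them was chr18:24258001-43167000. In lamin B1 replicate 2, 1 domain (chr1:186696001-199524000) held 4. In LC3 replicate 1, 2 domains shared the maximum of 5, and the longer of them was chr4:90080001-128610000.

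At the 540 edges of the long stretches, lamin B1 ended first more often than LC3. Lamin B1 replicates 1 and 2 ended exactly at the edge in 39.1% and 34.4% of cases, and LC3 replicates 1 and 2 in 21.7% and 15.6%. Over the edges of all shared runs these shares were 36.8%, 37.7%, 20% and 17.7%. The median distance by which a domain ran past the edge was 4.0 and 9.0 kb for lamin B1, and 122 and 143 kb for LC3. These lamin B1 distances are close to the bin size of the lists, which was 3, 4, 5 and 3 kb in lamin B1 replicates 1 and 2 and LC3 replicates 1 and 2. The upper quartile was 157 and 221 kb for lamin B1 against 1571 and 2426 kb for LC3. Both sides of the stretches gave the same order: on the left, medians were 3.5 and 4.0 kb for lamin B1 and 114.5 and 99.5 kb for LC3, and on the right 7.5, 12.0, 129 and 180.0 kb.

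Domains that ran on for at least 1 Mb were found at 13.5% and 13.9% of edges in the lamin B1 lists and at 29.1% and 33.9% in the LC3 lists. Over all shared runs these shares were 11.7%, 10.7%, 27% and 30.5%. Both lamin B1 lists ended before both LC3 lists at 249 edges (46.1%, against 44.6% of the edges of all shared runs). Both LC3 lists ended before both lamin B1 lists at 79 edges (14.6%, against 13.9%), and the order was mixed at 212 edges (39.3%). Around the short shared runs the order was mixed at 44.5% of edges. LC3 also ran on further than lamin B1 around the 200 short shared runs, whose lamin B1 medians were 4.0 and 2.0 kb and LC3 medians 101.5 and 57.0 kb. Long stretches of at least 5 Mb had LC3 medians of 449.5 and 561 kb, against 94.5 and 119.5 kb for stretches from 1 to 2 Mb, while the lamin B1 medians stayed between 0.50 and 13.5 kb in every length class.

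Directly outside an edge, LC3 continued more often than lamin B1. In the first 50 kb, a list was counted where it covered at least 50% of the window. Both LC3 lists and 1 lamin B1 list continued at 161 of 540 edges (29.8%, against 30.5% over all shared runs), and both LC3 lists alone at 114 (21.1%, against 19.3%). Both lamin B1 lists and 1 LC3 list continued at 89 edges (16.5%, against 14.5%), and both lamin B1 lists alone at 30 (5.56%, against 5.32%). No list continued at 64 edges (11.9%, against 13.6%). The remaining edges had 1 list of each antibody (30 edges) or 1 list in all (52 edges). For the 21.1% with LC3 alone, the 95% Wilson interval was 17.9% to 24.8%, and for the 5.56% with lamin B1 alone it was 3.92% to 7.82%. These intervals treat edges as independent, and edges of one domain are not. The same lists also set the edges, and an interval over edges leaves out the spread between replicate lists. The intervals therefore describe shares of edges and do not test a difference between the antibodies.

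Coverage outside the edges fell steeply close to the stretch and then climbed again. At 100 kb from the edge, the lamin B1 lists covered 29.6% and 32.0% of positions and the LC3 lists 52.6% and 54.5%. The lowest sampled values were 23.9% and 24.3% for lamin B1, at 300 kb, and 37.7% and 42.9% for LC3, at 500 kb. At 500 kb, 45.9% of positions were in no list, the highest value of the 13 distances sampled. By 2000 kb the lists covered 49.9%, 49.2%, 53.3% and 58.1%. For scale, the same lists covered 1400, 1384, 1403 and 1484 Mb of spans that total 2839 Mb. At least 1 list ends at every edge, so the fall next to it follows in part from the definition. The profile was not made for short shared runs. At each of the sampled distances the lower LC3 value was above the higher lamin B1 value.

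**Figure D5:**
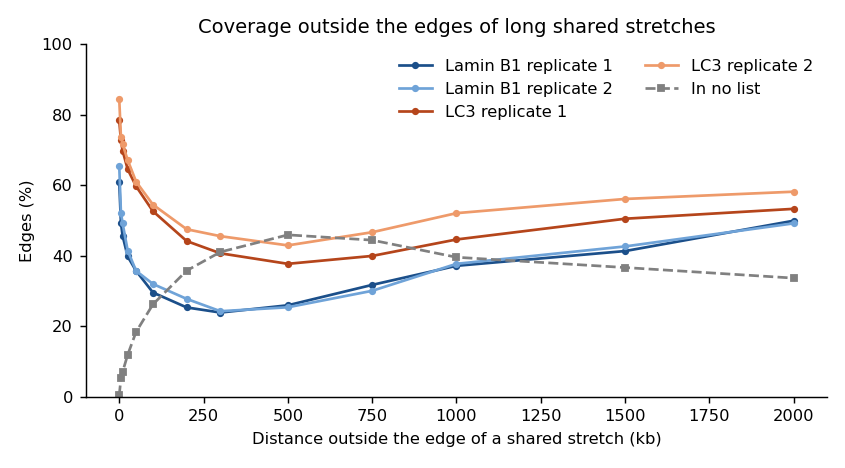
Percent of edges (vertical) at which each list, or no list, covers the position at a given distance in kb outside the edge of a long shared stretch (horizontal); lines join the 13 sampled distances, and positions beyond a chromosome's span are left out. Lamin B1 is lowest at 300 kb (23.9% and 24.3%) and the share in no list is highest at 500 kb (45.9%).

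At a minority of edges all 4 lists stopped together. Every domain ended within 50 kb at 102 of 540 edges (18.9%), against 21.4% of the edges of all shared runs. The count was 66 within 25 kb and 147 within 100 kb. The shares by length were 20.8% for stretches from 1 to 2 Mb, 18.6% from 2 to 5 Mb and 14.4% from 5 Mb upward. Both edges were this sharp in 11 stretches (4.07%, against 4.47% of all shared runs), whose median length was 1.77 Mb. After the 16.9 Mb stretch of chromosome 3, the longest of the 11 were at chr2:48912001-53883000 (4.97 Mb, all ends within 12 kb) and chr3:172556001-176600000 (4.04 Mb, within 32 kb). The tightest was at chr11:57870001-59220000 (1.35 Mb), where all ends fell within 3 kb, the bin size of 2 of the lists. Replicates of one antibody ended a median of 20.0 kb apart for lamin B1 and 30.0 kb apart for LC3. They ended within 50 kb of each other at 64.4% and 56.3% of edges. Around the short shared runs the medians were 16 and 24 kb, and the shares 67.25% and 61%.

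Neighbouring long stretches of a chromosome lay a median of 3.26 Mb apart. The 249 intervals between them had an interquartile range of 1.63 to 6.84 Mb, with 29 under 1 Mb and 40 of at least 10 Mb. The narrowest was at chr4:59715001-59799000 (0.084 Mb), where the lists covered 3.57%, 4.76%, 4.76% and 32.1% of the bases, so that all 4 were interrupted at the same place. The next were at chr2:4940001-5132000 (0.192 Mb) and chr1:197595001-197850000 (0.255 Mb). In the last of these LC3 replicates 1 and 2 and lamin B1 replicate 2 covered 100% and lamin B1 replicate 1 covered 0%, so 1 list alone made the interval.

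The widest intervals were at chrX:39504001-97068000 (57.6 Mb), chr9:31930001-73158000 (41.2 Mb) and chr8:14508001-49732000 (35.2 Mb). All 3 are known to include the centromere. They were not alike in content: on chromosome 9, 88.3% of the bases were in no list, whereas on X the lamin B1 lists covered 36.3% and 54.5%, and the LC3 lists 3.54% and 30.6%. Bases to which reads cannot be mapped were not set apart in any interval or chromosome span, and their share was not tested.

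LC3 joined neighbouring stretches more often than lamin B1 did. A single domain crossed the whole interval in 51 and 62 of 249 cases in the LC3 lists and in 21 cases in each lamin B1 list. Both LC3 lists crossed 48 intervals (19.3%), with a median of 1.42 Mb, and both lamin B1 lists crossed 8 (3.21%), with a median of 2.07 Mb. Of the 48, 28 were crossed by neither lamin B1 list. Of the 8, 5 were crossed by neither LC3 list. The widest interval crossed by both LC3 lists was at chr2:187365001-192576000 (5.21 Mb), where lamin B1 covered 10.4% in replicate 1 and 100% in replicate 2. The widest crossed by both lamin B1 lists was at chr5:161755001-166375000 (4.62 Mb), where LC3 covered 18.6% and 38.8%. In 177 intervals (71.1%), with a median of 4.54 Mb, no list crossed. Intervals between all 470 shared runs were not counted, so crossing cannot be called a trait of the long stretches.

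A single list separated 2 long stretches in 23 of the 249 intervals. That list was lamin B1 replicate 1 in 12 cases, lamin B1 replicate 2 in 8, LC3 replicate 1 in 3 and LC3 replicate 2 in 0. This count too was made between long stretches alone. Of the 1421 Mb in all intervals, 769 Mb (54.1%) lay in no list, 167 Mb (11.8%) in both LC3 lists alone, 102 Mb (7.16%) in short shared runs and 75.8 Mb (5.33%) in both lamin B1 lists alone. The remaining 308 Mb (21.6%) was in lists that did not agree between replicates. Short shared runs were present in 95 intervals (38.2%), which together held 154 of the 200. No sequence is shown for the stretches, because no genome of their build was used.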

How the data were processed

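ChIP-seq domain lists of the 4 precipitated samples were used. The submitters' processing notes name Bowtie2, bedtools, bcl2fastq 2.16.0.10 and the build GRCh37/hg19. Each deposited list carries the name of EDD, which calls broad domains. Its version, settings and use of input were not given in the sources used. EDD can span short stretches that lack enrichment, so where a domain ends depends on how it was run. The deposited values are start and end positions, with no score, and depth is therefore unknown.

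Lists were converted to 1 kb steps in Python 3.11.15 with NumPy 2.4.6. Wilson intervals came from SciPy 1.17.1 and figures from Matplotlib 3.10.9. The 4 lists were intersected, and contiguous runs of at least 1 Mb were kept. The intersection was tested on simulated lists, where 100% of 393 planted stretches came back. Every simulated list held each planted stretch whole, so this checks the code and not how real domains break. Starts are given 1-based.

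The members were chosen from these lists, with earlier results of these data known, so no test was applied. Named stretches were the 10 longest, the longest of each chromosome, those next to the minimum, and the 3 widest and 3 narrowest intervals. The chromosomes with the 3 highest and 3 lowest covered lengths were also named. Domains, intervals and sharp edges named otherwise were chosen after their values were seen. The planned counts of genes, gene lists and GC content needed an hg19 genome and were not run. Alternatives covered the minimum length, bridging, omission of each list, same-numbered pairs, autosomes and the flank window. Other cutoffs for edges that end together were added after the data had been seen.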

Additional observations from a re-analysis of the deposited data

How the results depend on the processing

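The number of long shared stretches was 413 with a minimum of 500 kb and 150 with a minimum of 2 Mb. The total length was then 1017 and 732 Mb and the median 1.52 and 3.63 Mb, against 270, 910 Mb and 2.12 Mb. When 1 list at a time was omitted, the number lay between 271 and 291, the total between 936 and 1007 Mb and the median between 2.06 and 2.22 Mb. Under the replicate block, which intersects each same-numbered pair and averages both pairs, the total was 1036 Mb, and the number (292.5) and median (2.18 Mb) were close to the main ones. Fewer lists to satisfy can only add bases. Bridging of interruptions under 10 or 100 kb left the number at 270, and the total was 910 and 911 Mb. Bridging under 100 kb joined the stretches on either side of the 0.084 Mb interval of chromosome 4. An equal number therefore does not mean the same members. In the first 10 kb and the first 200 kb outside an edge, no list continued at 5.19% and 26.1% of edges. In brackets are the shares for short shared runs, here 7% and 31.5%. Both LC3 lists and 1 lamin B1 list continued at 44.4% and 18.7% (44% and 19%). Both lamin B1 lists and 1 LC3 list did so at 20.9% and 11.9% (17% and 7.25%). In the first 10 kb, both LC3 lists alone continued at 12.8% (11.75%) and 1 list at 6.30% (10.5%). In the first 200 kb, 1 list of each antibody continued at 2.59% (3.25%). Edges where all 4 lists ended together numbered 66 within 25 kb and 147 within 100 kb, against 102. The share of edges with LC3 alone exceeded that with lamin B1 alone in all 3 windows, and it did so around the short shared runs too. Because depth is unknown, a missing domain cannot be read as missing protein. GC content, gene density and gene placement were not run.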
